A study of Mus musculus with 5 samples.

Results

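The 10 genes described here encode enzymes that make or break down prostaglandins and receptors that bind them. They were listed by name and found by Ensembl identifier among the 21835 genes of the deposited table, where all 10 were present. They are the cyclooxygenases *Ptgs1* and *Ptgs2*, the terminal synthases *Ptges*, *Ptges2*, *Ptges3* and *Ptgis*, the catabolic enzyme *Hpgd*, and the receptors *Ptger2*, *Ptger4* and *Ptgfr*. The rule named the genes by function and used no measured value. The members were still chosen with earlier results of these data known, so their counts beside those of all tested genes are descriptive.

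The study compared cultured murine lung cancer-associated fibroblasts (CAFs, the fibroblasts of a tumor's stroma) that carried an empty vector (CAF-vec, genotype given as WT control, 2 samples) with CAFs that overexpressed the miR-429, miR-200a and miR-200b cluster (CAF-200, 3 samples). Per the labels, the cluster was delivered by a pLVX-Neo lentivirus made in 293T cells, and cells were selected with G418 for over 2 weeks. The methods instead name a hygromycin vector introduced into lung fibroblasts, RNA in triplicate and another extraction kit. The sources used here give neither a clone number, nor a donor animal, nor whether replicates were separate cultures, so *p* values measure only the spread between these samples, which may be technical. The question the comparison addressed was which transcripts change when miR-200 is raised in CAFs.

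Prostaglandins are lipid signals made from arachidonic acid, which phospholipase A2 frees from membranes. A cyclooxygenase converts arachidonic acid to prostaglandin H, and terminal synthases turn this intermediate into prostaglandin E, prostacyclin, thromboxane or the D and F prostaglandins. *Ptgs1* (COX-1) is usually expressed constitutively, whereas *Ptgs2* (COX-2) is an immediate early gene induced by growth factors and cytokines. Fibroblasts are a well-known stromal source of prostaglandin E, which acts through the EP receptors and is inactivated by the dehydrogenase encoded by *Hpgd*.

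The 3 mature microRNAs of the overexpressed cluster are shown because their seeds were searched for in the 10 genes. Sequences and positions are from RefSeq (GRCm38.p6, minus strand of chromosome 4), 5′ to 3′, with the seed (bases 2 to 8) in capitals.
mmu-miR-200a-3p: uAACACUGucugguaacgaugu
mmu-miR-200b-3p: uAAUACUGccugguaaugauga
mmu-miR-429-3p: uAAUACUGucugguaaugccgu
The first lies at chr4:156054911-156054932, the second at chr4:156055685-156055706 and the third at chr4:156053916-156053937. miR-200b and miR-429 shared a seed, and miR-200a had another. The microRNAs themselves were not measured in these mRNA libraries.

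Values are the authors' CPM, described as scaled by the trimmed mean of M values, although every column had nearly the same sum (999956 to 1000111). How that scaling was applied is not known here. The values carry no total read counts, so the depth behind each value is unknown. SDs of log2 differences between samples of a group were 0.49 for the pair of CAF-vec samples and 0.192 to 0.204 for the CAF-200 pairs. The CAF-200 columns listed the same 6127 genes at 0, and 788 to 1100 of their values lay above 0 but under 0.001 CPM. The CAF-vec columns listed 7898 and 7413 genes at 0, 7053 of them in both, and had 0 values above 0 but under 0.001 CPM. The part of this difference in the replicate spread was not tested. Of 3 genes examined as targets of miR-200, *Nrp2* had a log2 fold change of -0.83 (limma adjusted *p* = 0.00305), while *Zeb1* (log2 fold change -0.36, limma adjusted *p* = 0.0504) and *Zeb2* (-0.23, limma adjusted *p* = 0.374) did not pass the test. Of 12 fibroblast markers, 11 were tested, 4 rose (*Thy1*, *Acta2*, *Dcn* and *Lum*, against 2.37% of all tested genes), 5 had negative log2 fold changes and the median was 0.06. The abundant collagen genes *Col1a1* (log2 fold change -0.91, limma adjusted *p* = 0.0982) and *Col1a2* (-0.75, limma adjusted *p* = 0.112), named after their values were seen, did not pass the test, and *Fap* was under 0.5 CPM in every sample. The 8 epithelial, 6 mast cell and 6 endothelial markers were too low to be tested, with summed levels of at most 0.452, 0.368 and 1.06 CPM per sample. The 9 macrophage and leukocyte markers had summed levels between 13.6 and 15.1 CPM per CAF-vec sample and between 15.6 and 16.6 CPM per CAF-200 sample, and of these *Adgre1* and *Cd3e* were listed at 0 in every sample and *Lyz2* rose (log2 fold change 1.91, limma adjusted *p* = 0.00395). The other tested markers of that list, *Csf1r*, *Cd14* and *Cd68*, had log2 fold changes of -0.46, -0.44 and -0.14 and did not pass the test, and the list's median was -0.29.

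Among the 10 genes, the prostacyclin synthase gene *Ptgis* was 11.3 times as high in CAF-200 as in CAF-vec by the ratio of means. That ratio depends strongly on the CAF-vec sample, because those values were 1.682 and 0.4947 CPM. The cyclooxygenase gene *Ptgs2* was 1.9 times as high. The other 6 genes that could be tested had log2 fold changes between -0.5 and 0.36, and none of them passed the test. *Hpgd* and *Ptger2* were listed at 0 CPM in all 5 samples. A gene counted as changed when its adjusted *p* was under 0.01 and its log2 fold change exceeded 1 in either direction on log2(CPM + 0.5), with limma and Benjamini-Hochberg adjustment over the 12175 genes that reached 0.5 CPM in at least 2 samples. By that rule 1 of the 8 tested members (*Ptgis*) was higher, against 2.37% of all tested genes, and 0 were lower, against 2.35%. By adjusted *p* alone 2 were higher (*Ptgis* and *Ptgs2*), against 4.45% of all tested genes, and 0 were lower, against 5.57%. At an unadjusted *p* under 0.05 in limma, 3 members were higher (*Ptgis*, *Ptgs2* and *Ptges3*), against 17.3% of all tested genes, and 1 was lower (*Ptges*), against 27.6%. Among all genes, 286 were lower and 289 higher by that rule, but 0 lower and 0 to 1 higher when any 1 of the CAF-200 samples was left out. The median log2 fold change of the 8 members was 0.06, and that of all tested genes was -0.094.

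**Figure D1:**
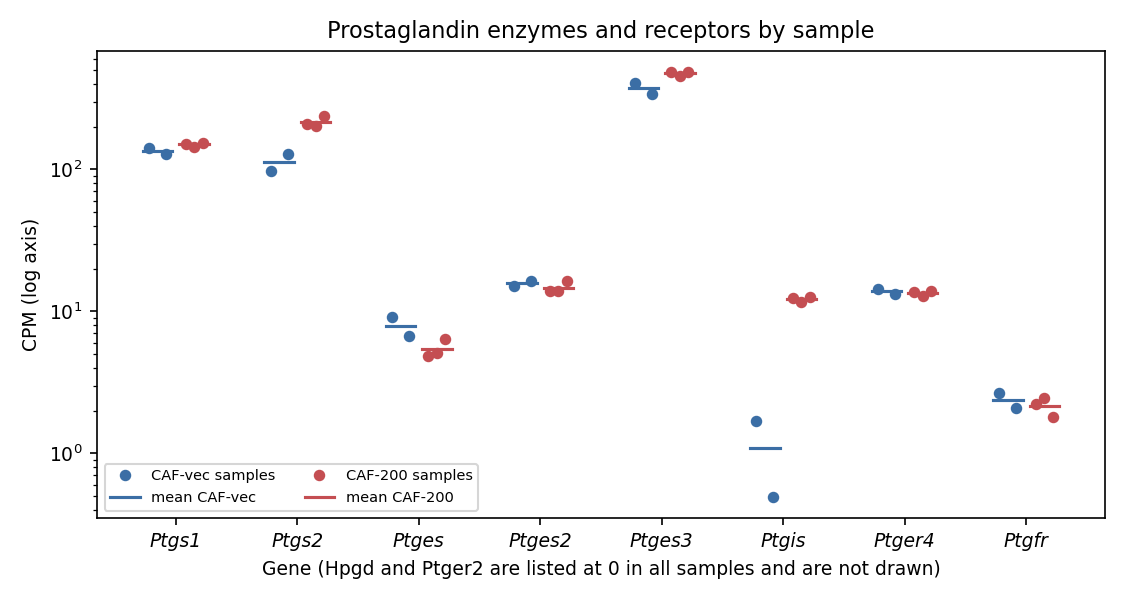
CPM (log axis) of the 8 members with values above 0, each point 1 sample (blue, CAF-vec; red, CAF-200) and each line a group mean. *Ptgis* and *Ptgs2* show the widest gaps between groups, with *Ptgis* at 0.4947 and 1.682 CPM in CAF-vec but between 11.65 and 12.69 CPM in CAF-200.

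*Ptgs2* (ENSMUSG00000032487, chr1:150100031-150108227, plus strand of GRCm38) read 97.74 and 129.5 CPM in CAF-vec 1 and 2, against 209.7, 201.1 and 236.6 CPM in CAF-200 1, 2 and 3. All 3 CAF-200 samples exceeded both CAF-vec samples, the lowest of them 1.55 times the higher CAF-vec value. The means were 113.6 ± 22.4 CPM (SD, n = 2) and 215.8 ± 18.5 CPM (SD, n = 3). *Ptgs2* was higher by a log2 fold change of 0.93 (standard error 0.15, 95% interval 0.56 to 1.3, limma adjusted *p* = 0.00961), enough to clear the adjusted *p* threshold but short of the fold threshold of 1. It was number 481 of 12175 genes ordered from the greatest rise. The adjusted *p* lay close to the threshold and went over it under several settings, among them the fit without a filter on low values (0.0164, limma) and the fits without any 1 of the CAF-200 samples (0.0467 to 0.0558, limma).

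*Ptgs1* (ENSMUSG00000047250, chr2:36230426-36252272, plus strand) was measured at 142.3 and 128.1 CPM in CAF-vec and at 152, 145.1 and 153.9 CPM in CAF-200. The CAF-200 values lay above both CAF-vec values, but the lowest was only 1.02 times the higher CAF-vec value. Its log2 fold change of 0.15 (standard error 0.0919, 95% interval -0.07 to 0.38) did not pass the test (limma adjusted *p* = 0.24), and it was 0.23 without CAF-vec 1 and 0.08 without CAF-vec 2. A change as large as the threshold of 1 lies outside that interval.

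Both cyclooxygenase transcripts were thus abundant in these cells, and their balance was compared within each sample. The ratio of *Ptgs2* to *Ptgs1* CPM was 0.687 and 1.01 in the CAF-vec samples and 1.38, 1.39 and 1.54 in the CAF-200 samples. On the log2 scale the mean ratio was -0.26 in CAF-vec and 0.52 in CAF-200, a difference of 0.78. The groups did not overlap, and the two-sided exact permutation test gave *p* = 0.2, the smallest value that the 10 splits of 5 samples allow, so this test cannot reach 0.05 here. Levels of different genes are comparable only per length, and per kb of the longest annotated transcript *Ptgs2* was at 22 and 29.1 CPM per kb in CAF-vec against 49.6 and 44.7 for *Ptgs1*. In CAF-200 the per-kb levels were 47.1, 45.2 and 53.1 for *Ptgs2* and 53, 50.6 and 53.7 for *Ptgs1*. Within each of the 5 samples *Ptgs2* therefore stood below *Ptgs1* per kb of the longest annotated transcript, and only in CAF-200 did the sample ranges of both genes overlap.

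**Figure D2:**
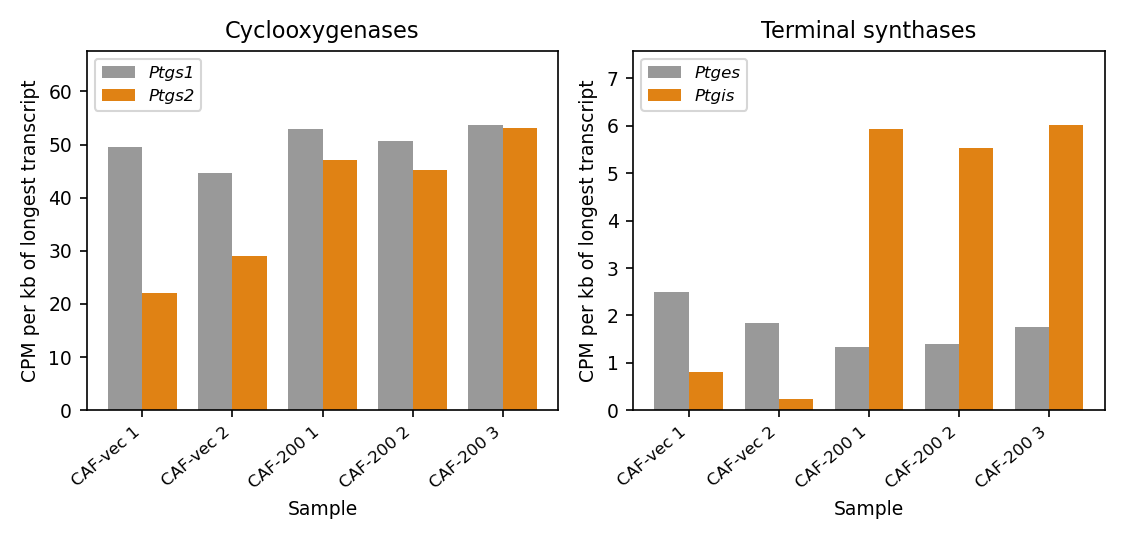
CPM per kb of the longest annotated transcript in each of the 5 samples, for both cyclooxygenases (left) and for *Ptges* and *Ptgis* (right), 1 bar per gene and sample. *Ptgs2* was below *Ptgs1* in each of the 5 samples, by the least in CAF-200 3 (53.1 against 53.7), and *Ptgis* stood below *Ptges* in both CAF-vec samples and above it in the 3 CAF-200 samples.

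*Ptgis* (ENSMUSG00000017969, chr2:167191805-167240604, minus strand) encodes prostacyclin synthase, which converts prostaglandin H to prostacyclin, a vasodilator that also inhibits platelets. It read 1.682 and 0.4947 CPM in CAF-vec 1 and 2, against 12.51, 11.65 and 12.69 CPM in CAF-200 1, 2 and 3. The lowest CAF-200 value was 6.93 times the higher CAF-vec value. Both CAF-vec samples were low but differed from each other by 1.13 on the log2(CPM + 0.5) scale, and the CAF-200 samples were close together. The means were 1.089 ± 0.84 CPM (SD, n = 2) and 12.28 ± 0.554 CPM (SD, n = 3).

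*Ptgis* rose by a log2 fold change of 3.12 (standard error 0.323, 95% interval 2.32 to 3.91, limma adjusted *p* = 0.00368), number 8 of the 12175 genes in the order of rises. A single CAF-vec sample reached the minimum of 0.5 CPM, so *Ptgis* entered the test through its CAF-200 values. The log2 fold change was 2.73 with a pseudocount of 1 and 3.59 with 0.1, and it was 3.68 without CAF-vec 1 and 2.55 without CAF-vec 2. Without any 1 of the CAF-200 samples it stayed between 3.09 and 3.15, but the adjusted *p* was 0.0266 to 0.0321 (limma), above the threshold. On the opposite strand, exons of *1110018N20Rik* overlap those of *Ptgis*. That gene was not among the genes with values, and the libraries were stranded but the counting setting is not given in the sources used here.

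The 3 genes whose pattern over the 5 samples was closest to that of *Ptgis*, by the Euclidean distance of log2(CPM + 0.5) values centred on each gene's mean, were *Tagln* (distance 0.442), *Myl9* (0.528) and *Esm1* (0.535). *Tagln*, which encodes the actin-binding protein transgelin, was at 55.11 and 36 CPM in CAF-vec and at 329.6, 324.9 and 381.7 CPM in CAF-200. *Myl9*, a myosin regulatory light chain gene, was at 7.079 and 3.998 CPM in CAF-vec and at 37.01, 34.84 and 42.71 CPM in CAF-200. *Esm1*, which encodes the proteoglycan endocan, was at 2.317 and 1.435 CPM in CAF-vec and at 18.19, 14.06 and 19.29 CPM in CAF-200. In all of them, as in *Ptgis*, CAF-vec 2 was the lowest sample and CAF-200 3 the highest. Their log2 fold changes were 2.94, 2.72 and 2.91, which the choice by likeness to *Ptgis* fixes in direction and largely in size, so they are given without a test.

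**Figure D3:**
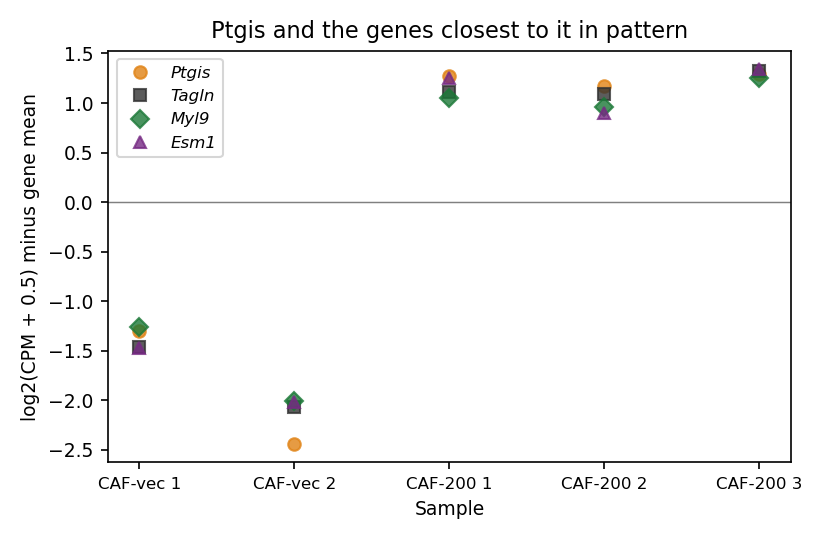
log2(CPM + 0.5) minus the gene's mean over the 5 samples, for *Ptgis* and the 3 tested genes nearest to it by Euclidean distance, 1 point per gene and sample. The 4 genes lie below their mean in both CAF-vec samples and above it in the 3 CAF-200 samples, and the distances to *Ptgis* are 0.442, 0.528 and 0.535.

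Markers of smooth muscle and pericytes, cells in which prostacyclin synthase is well known, were measured beside this result. The 6 markers together reached between 13 and 15.3 CPM per CAF-vec sample and between 35.7 and 39.9 CPM per CAF-200 sample. Of the 4 that could be tested, only *Cnn1*, which encodes calponin, rose (log2 fold change 2.79, limma adjusted *p* = 0.000929) and the median log2 fold change was -0.14. *Cspg4* (-0.41), *Notch3* (-0.31) and *Des* (0.02) did not pass the test, and *Myh11* and *Rgs5* were too low to be tested. *Cnn1* alone was at 3.377 and 4.353 CPM in CAF-vec and at 31.98, 29.08 and 27.73 CPM in CAF-200. The part of such cells in the *Ptgis* difference was not tested, and in bulk samples more cells of a type and more RNA per cell cannot be told apart.

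The 3 prostaglandin E synthase genes did not pass the test in either direction. *Ptges* (ENSMUSG00000050737, chr2:30889471-30929863, minus strand), the inducible microsomal synthase usually coupled to COX-2, was measured at 9.094 and 6.741 CPM in CAF-vec and at 4.845, 5.059 and 6.427 CPM in CAF-200. Every CAF-200 sample was below both CAF-vec samples, though CAF-vec 2 and CAF-200 3 were close. The means were 7.918 ± 1.66 CPM (SD, n = 2) and 5.444 ± 0.858 CPM (SD, n = 3). The log2 fold change was -0.5 (standard error 0.181, 95% interval -0.95 to -0.05, limma adjusted *p* = 0.0867). With a single CAF-vec sample kept, it was -0.29 without CAF-vec 1 and -0.7 without CAF-vec 2. *Ptges* was the only member whose CAF-200 values all lay below CAF-vec, an arrangement seen in 37.3% of all tested genes.

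*Ptges3* (ENSMUSG00000071072, chr10:128058954-128077272, plus strand) encodes the cytosolic synthase, which is also the p23 co-chaperone of HSP90. It was measured at 405 and 341.8 CPM in CAF-vec and at 486.4, 458.6 and 486.6 CPM in CAF-200. All CAF-200 values were above CAF-vec, as in 24.3% of tested genes, and 4 members showed this order (*Ptgs1*, *Ptgs2*, *Ptges3* and *Ptgis*). Its log2 fold change of 0.36 (standard error 0.114, 95% interval 0.08 to 0.64) did not pass the test (limma adjusted *p* = 0.062). With a single CAF-vec sample kept, it was 0.48 without CAF-vec 1 and 0.24 without CAF-vec 2. The processed pseudogenes *Ptges3-ps* and *Gm11893*, which were not among the genes with values, share 20.3% and 8.6% of the 31-base words of *Ptges3*. Whether reads were split between these copies was not tested.

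*Ptges2* (ENSMUSG00000026820, chr2:32395896-32405772, plus strand), the second membrane-associated synthase, was measured at 15.2 and 16.29 CPM in CAF-vec and at 13.93, 14.01 and 16.24 CPM in CAF-200. The groups overlapped, and the log2 fold change was -0.1 (95% interval -0.37 to 0.17, limma adjusted *p* = 0.524).

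The relation of the prostacyclin to the prostaglandin E branch was examined as the ratio of *Ptgis* to *Ptges*, a pair chosen after the values were seen and so given without a test. The CPM ratio was 0.185 and 0.0734 in the CAF-vec samples and 2.58, 2.3 and 1.97 in the CAF-200 samples. Per kb of transcript, *Ptges* was at 2.49 and 1.85 CPM per kb in CAF-vec and at 1.33, 1.39 and 1.76 in CAF-200, while *Ptgis* was at 0.799 and 0.235 in CAF-vec and at 5.94, 5.53 and 6.02 in CAF-200. Of this pair, *Ptges* was thus the higher per length in CAF-vec and *Ptgis* in CAF-200.

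Which transcript of each gene these cells used was not determined, so every level per kb depends on the choice of the longest annotated transcript. Arranged by mean CPM per kb of that transcript, the tested members ran from *Ptges3* down through *Ptgs1*, *Ptgs2*, *Ptger4*, *Ptges2*, *Ptges* and *Ptgis* to *Ptgfr* in CAF-vec. In CAF-200 *Ptgis* stood between *Ptgs2* and *Ptger4*, and the others kept that order. *Ptges3* was at 171 to 203 CPM per kb in CAF-vec and 229 to 243 in CAF-200, well above every other member. Neighbours whose sample ranges overlapped were *Ptgis* and *Ptgfr* in CAF-vec and *Ptgs1* and *Ptgs2* in CAF-200.

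*Hpgd* (ENSMUSG00000031613, chr8:56294585-56321043, plus strand), which encodes the dehydrogenase that starts prostaglandin inactivation, was listed at 0 in all 5 samples. *Ptger2* (ENSMUSG00000037759, chr14:44988195-45003820, plus strand), which encodes the EP2 receptor, was also listed at 0 in all 5. Without read counts no upper limit can be set for these values, and neither gene could be compared between groups. The planned ratios of *Ptgs2* to *Hpgd* and of *Ptger4* to *Ptger2* were therefore not formed.

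*Ptger4* (ENSMUSG00000039942, chr15:5206661-5244187, minus strand) encodes EP4, which like EP2 raises cAMP, and was the higher per length of the receptors that could be tested. It was measured at 14.43 and 13.19 CPM in CAF-vec and at 13.6, 12.79 and 13.83 CPM in CAF-200. The groups overlapped and the means of 13.81 ± 0.881 CPM (SD, n = 2) and 13.41 ± 0.544 CPM (SD, n = 3) were close. The log2 fold change was -0.04 (95% interval -0.28 to 0.2, limma adjusted *p* = 0.762), so a change as large as the threshold lies outside its interval. Exons of *Ttc33* on the opposite strand overlap those of *Ptger4*, and *Ttc33* was at 44.2 and 30.4 CPM in CAF-vec and at 28.1, 25.7 and 24.9 CPM in CAF-200.

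*Ptgfr* (ENSMUSG00000028036, chr3:151796502-151837630, minus strand), which encodes the FP receptor for the F prostaglandins, was low, at 2.661 and 2.087 CPM in CAF-vec and at 2.231, 2.438 and 1.798 CPM in CAF-200. The groups overlapped, and the log2 fold change was -0.11 (95% interval -0.53 to 0.3, limma adjusted *p* = 0.626). Neither receptor gene that could be tested thus passed the test.

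The seed matches of the overexpressed microRNAs were looked up in the longest annotated 3′-UTR of each member (GENCODE M21). The searched letters were CAGTGTT for miR-200a and CAGTATT for miR-200b and miR-429. Among 12060 tested genes with such a region, 20.9% held the first, 15.7% the second and 30.3% either. *Ptges3* held 1 match to the miR-200a seed (chr10:128076647-128076653) and *Ptgfr* held 1 match to the seed that miR-429 and miR-200b share (chr3:151801610-151801616), 8 bases into its 3′-UTR. Both are printed 5′ to 3′ on the gene's strand with the match in capitals, as the only matches in tested members.
Ptges3: gatcacttgtCAGTGTTcaggtgtatt
Ptgfr: atcaatgCAGTATTagaagaaagt
*Hpgd*, listed at 0, held 1 match to the miR-200a seed. The letters were not found in the searched 3′-UTRs of *Ptgs1*, *Ptgs2*, *Ptges*, *Ptges2*, *Ptgis*, *Ptger2* or *Ptger4*, which include both members past the adjusted *p*, *Ptgis* (417 bases searched) and *Ptgs2* (2445 bases). *Ptges3* and *Ptgfr*, the tested members with a match, had log2 fold changes of 0.36 and -0.11, and neither passed the test.

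The promoters of the members were searched on both strands of the stretch from 250 bases before to 50 bases after the RefSeq start (GRCm38.p6) for 5 short motifs. These were TGACG, the CRE core, found in 20.8% of 32851 promoters, and the full CRE TGACGTCA, found in 1.8%. The others were TATAAA (13.6%), GGGCGG (35.7%) and the E-box CACGTG (7.2%). *Ptgs2* and *Ptges3* each held a CRE core on the minus strand, at bases 13 and 11 after the start. That of *Ptgs2* (chr1:150100033-150100059, motif in capitals) is shown because cAMP and growth factor control of this gene is well known.
Ptgs2: agtcaccactaCGTCAcgtggagtccg
A CACGTG began within the same letters, at base 16 after the start, and *Ptgs2* also held GGGCGG at base -170. *Ptgis* held none of the 5 motifs in this window. A match describes the letters only and was not tested as a site.

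The other genes of the pathway were counted by step. Of 7 other prostanoid synthase and reductase genes, 5 were tested and 2 rose, against 2.37% of all tested genes. *Akr1c18*, an aldo-keto reductase gene placed on the list for the F branch, was at 0.1159 and 0.1089 CPM in CAF-vec and at 2.122, 2.351 and 2.233 CPM in CAF-200 (log2 fold change 2.16, 95% interval 1.82 to 2.49, limma adjusted *p* = 0.00145). Its log2 fold change was 1.54 with a pseudocount of 1 and 3.46 with 0.1. Like *Ptgis*, it entered the test through its CAF-200 values, and without any 1 of the CAF-200 samples its adjusted *p* was 0.0187 to 0.0223 (limma). *Prxl2b*, which encodes a prostamide and prostaglandin F synthase, was at 1.78 and 1.337 CPM in CAF-vec and at 3.842, 4.493 and 3.499 CPM in CAF-200 (log2 fold change 1.11, limma adjusted *p* = 0.00795). Without any 1 of the CAF-200 samples the adjusted *p* of *Prxl2b* was 0.0407 to 0.0444 (limma), and its log2 fold change was under the threshold with a pseudocount of 1 (0.95) and without CAF-vec 2 (0.96). *Tbxas1*, the thromboxane synthase gene, chosen after its values were seen, was at 2.166 and 1.968 CPM in CAF-vec and at 1.011, 0.7952 and 0.9919 CPM in CAF-200, and its log2 fold change of -0.84 did not pass the test (limma adjusted *p* = 0.0116). Both prostaglandin D synthase genes, *Ptgds* and *Hpgds*, were listed at 0 in every sample. The median of the 5 was 0.15, with 0 lower past both thresholds and 1 lower at an unadjusted *p* under 0.05 (limma), against 2.35% and 27.6% of all tested genes.

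Of 6 other prostanoid receptor genes, 3 were tested and none passed in either direction, with a median log2 fold change of -0.16. At an unadjusted *p* under 0.05 in limma, 1 was lower and 0 were higher, against 27.6% and 17.3% of all tested genes. *Tbxa2r*, the thromboxane receptor gene, was at 1.845 and 1.678 CPM in CAF-vec and at 0.972, 1.28 and 1.004 CPM in CAF-200 (log2 fold change -0.52, limma adjusted *p* = 0.0501). *Ptger1*, which encodes EP1, had a log2 fold change of -0.16 (limma adjusted *p* = 0.402). *Ptgir*, the prostacyclin receptor gene, chosen after its values were seen, was at 2.353 and 2.309 CPM in CAF-vec and at 2.234, 2.661 and 2.848 CPM in CAF-200, and the groups overlapped (log2 fold change 0.12, limma adjusted *p* = 0.539). *Ptger3* and *Ptgdr* were listed at 0 in all samples.

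Upstream of the cyclooxygenases, 11 of 20 genes of arachidonate release were tested and none passed in either direction (2 lower and 4 higher at an unadjusted *p* under 0.05 in limma, against 27.6% and 17.3% of all tested genes, median log2 fold change -0.03). *Pla2g7*, which encodes the lipoprotein-associated phospholipase, had a log2 fold change of -1.13 (limma adjusted *p* = 0.0122) and *Pla2g4c* one of 0.82 (limma adjusted *p* = 0.0176). *Pla2g7* was lower past both thresholds with quantile normalization (-1.2, limma adjusted *p* = 0.00865) and with no variance trend (-1.13, limma adjusted *p* = 0.0082), but its log2 fold change was -0.75 with a pseudocount of 1 and -2.04 with 0.1. *Pla2g7* entered the test through its CAF-vec values and *Pla2g4c* (0.57 with a pseudocount of 1, 1.28 with 0.1) through its CAF-200 values. *Pla2g4a*, the cytosolic phospholipase A2 gene best known to feed the cyclooxygenases and chosen after its values were seen, was at 236 and 194.4 CPM in CAF-vec and at 207.4, 206.2 and 214.6 CPM in CAF-200, so the groups overlapped. Of 6 genes of prostaglandin transport and later breakdown, 5 were tested and none passed (0 in either direction at an unadjusted *p* under 0.05 in limma, median -0.06). The exporter gene *Abcc4* had a log2 fold change of 0.33 (limma adjusted *p* = 0.199, and 0.57 without CAF-vec 1 or 0.10 without CAF-vec 2) and the reductase gene *Ptgr1* one of -0.15 (limma adjusted *p* = 0.433). *Slco2a1*, the prostaglandin uptake transporter gene, chosen after its values were seen, was at 87.92 and 102.9 CPM in CAF-vec and at 87.42, 90.69 and 95.74 CPM in CAF-200.

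**Figure D4:**
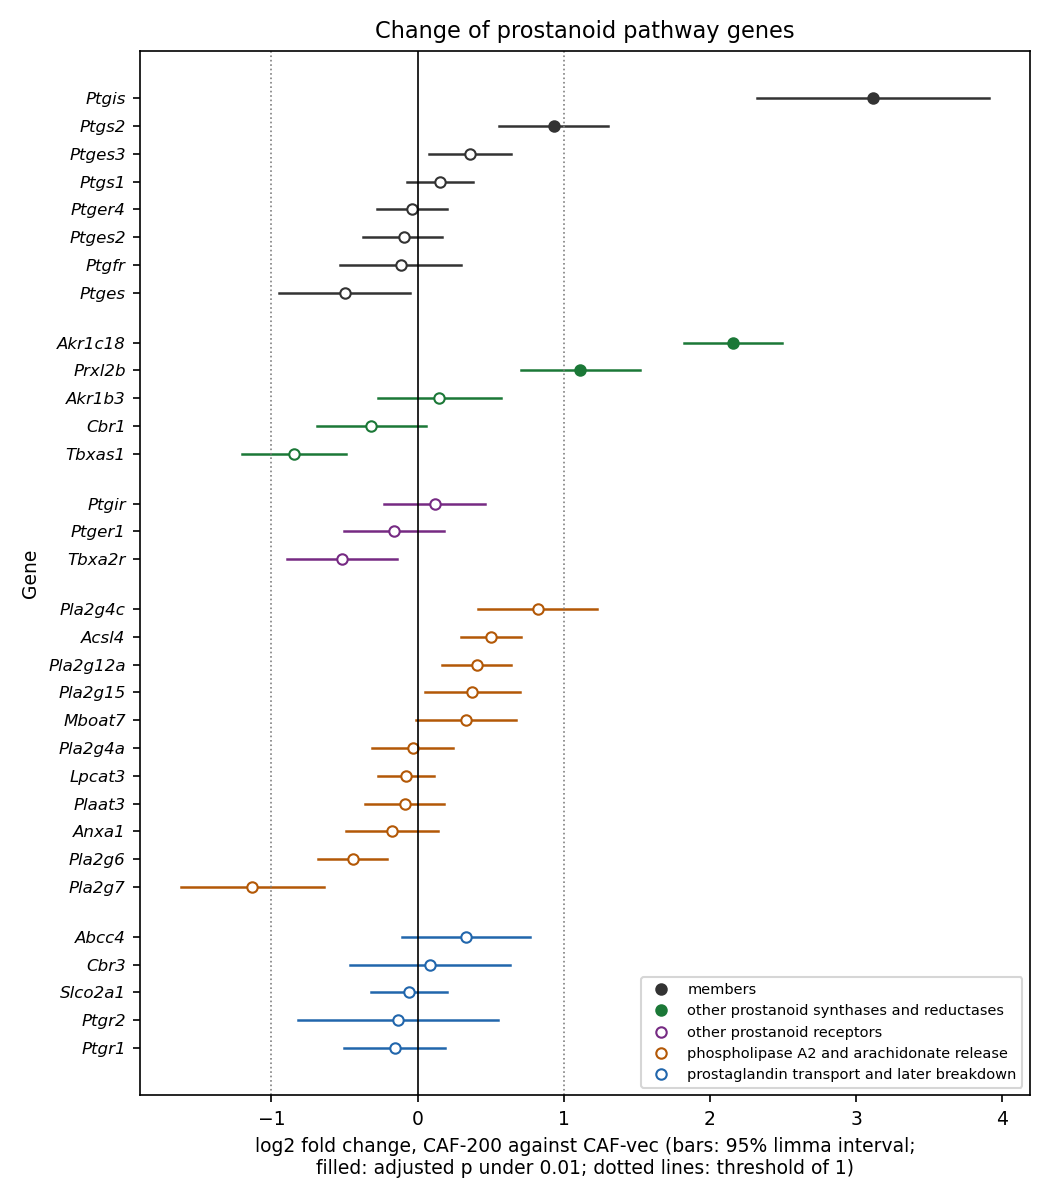
log2 fold change of CAF-200 against CAF-vec for the tested members and other pathway genes, with 95% limma intervals, filled points at an adjusted *p* under 0.01 and dotted lines at the fold threshold of 1. *Ptgis* (3.12), *Akr1c18* (2.16), *Prxl2b* (1.11) and *Ptgs2* (0.93) are the filled points, and the first 3 lie beyond the threshold.

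A list of the lipoxygenase and leukotriene branch, which also uses arachidonic acid, had 4 of 12 genes tested and none past both thresholds (median -0.44). At an unadjusted *p* under 0.05 in limma, 1 was lower and 1 higher, against 27.6% and 17.3% of all tested genes. *Ephx2*, a soluble epoxide hydrolase gene that was on the list although its enzyme acts on the epoxides of the cytochrome P450 branch, had a log2 fold change of 1.2 (limma adjusted *p* = 0.0168) and *Alox5ap*, which encodes the activator of leukotriene synthesis, one of -1.01 (limma adjusted *p* = 0.0235). *Ephx2* entered the test through its CAF-200 values, and its log2 fold change was 0.88 with a pseudocount of 1 and 1.73 with 0.1. *Alox5* itself was listed at 0 in all samples.

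EP2 and EP4 act through cAMP, and 15 of 16 listed cAMP-responsive genes were tested. The nuclear receptor gene *Nr4a2* rose, from 3.854 and 4.341 CPM in CAF-vec to 9.545, 8.576 and 12.03 CPM in CAF-200 (log2 fold change 1.19, limma adjusted *p* = 0.00709), and none fell past both thresholds (limma gave 3 lower and 5 higher with an unadjusted *p* under 0.05, against the same 27.6% and 17.3% of all tested genes). Without any 1 of the CAF-200 samples the adjusted *p* of *Nr4a2* was 0.0303 to 0.0377 (limma). The median of the 15 was -0.08, with 7 values above 0 and 8 below. Chosen after their values were seen, *Crem* (log2 fold change 0.91, limma adjusted *p* = 0.0137) and *Rgs2* (1.31, limma adjusted *p* = 0.0119) did not pass the test, and neither did *Nr4a3* (-0.98, limma adjusted *p* = 0.0106), *Ppargc1a* (-0.75, limma adjusted *p* = 0.021) and *Per1* (-0.65, limma adjusted *p* = 0.0238). Of 11 genes of RNA-binding proteins known to act on *Ptgs2* mRNA, all 11 were tested and none passed (1 lower and 1 higher at an unadjusted *p* under 0.05 in limma, median -0.03). The stabilizing factor gene *Elavl1* had a log2 fold change of 0.5 (limma adjusted *p* = 0.122, and 0.14 without CAF-vec 1 or 0.86 without CAF-vec 2) and *Rbm3* one of 0.33 (limma adjusted *p* = 0.0567).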

How the data were processed

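RNA of 2 CAF-vec and 3 CAF-200 samples was sequenced as paired-end stranded mRNA libraries. The authors deposited 1 table of CPM values scaled by the trimmed mean of M values (TMM). The submitters' processing notes name FastQC, cutadapt, Trimmomatic, STAR, RSEM, edgeR and the builds GRCm38 and mm10, without versions. Column sums were 999956 to 1000111 CPM. Whole reads could not be recovered, because only 18 to 49.1% of low values lay within 0.05 of a whole step, so no count test was run and the depth is unknown. Of the sample columns, 5 were used and 0 were not.

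The 12175 of 21835 genes that reached 0.5 CPM in 2 or more samples were compared on log2(CPM + 0.5), which understates changes of low genes, by limma (version 3.58.1, under R 4.3.3), using lmFit followed by eBayes and its variance trend, and Benjamini-Hochberg adjustment. The test was tried on simulated data. The calling thresholds follow those of the study. Names and coordinates came from GENCODE M21 by identifier (21795 genes matched), and microRNA and promoter sequences from RefSeq. All 138 listed symbols were looked up, and *Ptgr3* was not matched.

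The members, lists and tests were chosen with earlier results of these data known. Named genes were the members, genes of each list past both thresholds or, with none, the 2 with the greatest absolute log2 fold change, the 3 genes nearest to a called member, and *Zeb1*, *Zeb2* and *Nrp2*. Other genes of the lists, whether marked so or not, were named after their values were seen. Alternatives were other pseudocounts, filters, thresholds and scalings, no variance trend, the replicate number as a block, and each sample left out. Tables were handled in Python 3.11.15 (numpy 2.4.6, pandas 2.3.3), exact tests used SciPy 1.17.1, and figures were drawn with matplotlib 3.10.9.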

Additional observations from a re-analysis of the deposited data

How the results depend on the processing

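Of the members, 1 was higher past both thresholds, and this count was 0 with at least 1 CPM in every sample (which removes *Ptgis*). The count was 2 with centring on each sample's median, 2 with a log2 fold change beyond 0.5, and 0 without any 1 of the CAF-200 samples. It was 1 with the replicate block, and the count lower was 0 under every alternative. Over all genes, 286 were lower and 289 higher. These became 70 and 101 with the replicate block, 677 and 541 with a fold threshold of 0.5, and 436 lower with an adjusted *p* under 0.05. With a sample left out they ranged from 0 to 906 lower and from 0 to 624 higher, the extremes without CAF-vec 2 and without CAF-200 samples. Median centring gave 228 lower and 365 higher, and shifted the median over all genes on the log2 scale from -0.094 to 0.003.

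*Ptgs2* passed the fold threshold with median centring (1.03, adjusted *p* = 0.00898, limma). Its adjusted *p* exceeded 0.01 with no filter (0.0164), quantile normalization (0.0115), no variance trend (0.0115) and the replicate block (0.0387, log2 fold change 0.87), all by limma. Its log2 fold change was 0.73 to 1.14 with a sample left out. *Ptgis* kept its call with the replicate block (log2 fold change 3.09, adjusted *p* = 0.00535, limma). Fits without a CAF-vec sample leave 1 in that group and take their replicate spread from the CAF-200 samples alone. The SD of log2 differences was 0.49 for the CAF-vec pair and 0.192 to 0.204 for the CAF-200 pairs. Adjusted *p* values of such fits are therefore not given. Of named genes that missed the adjusted *p* in the main fit, *Tbxas1* (0.00704), *Pla2g4c* (0.00984) and *Pla2g7* (0.0082) passed it with no variance trend (limma). *Pla2g7* (0.00865) and *Rgs2* (0.00939) passed it with quantile normalization, and *Rgs2* (0.00776) with median centring (limma). With the replicate block, *Prxl2b* (0.027), *Nr4a2* (0.0239), *Thy1* (0.0121) and *Nrp2* (0.0285) no longer passed it, nor did *Prxl2b* (0.0145) and *Nr4a2* (0.014) with no filter (limma). The difference in the log2 ratio of *Ptgs2* to *Ptgs1* was 0.5 to 1.06 with a sample left out.

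Values near 0 changed sign. With quantile normalization the log2 fold change was 0.023 for *Ptger4*, 0.058 for *Pla2g4a* and 0.034 for *Slco2a1*. With median centring it was 0.056, 0.064 and 0.037 for these genes and 0.001 for *Ptges2*. With a sample left out it ran from -0.103 to 0.022 for *Ptger4*, from -0.259 to 0.03 for *Ptgfr*, from -0.357 to 0.054 for *Ptgr1*, from -0.542 to 0.083 for *Zeb2*, from -0.172 to 0.107 for *Pla2g4a* and from -0.173 to 0.053 for *Slco2a1*, the lowest and highest values being those without a CAF-vec sample. With a sample left out, other values near 0 kept their sign but moved by over 1.5 times, *Ptger1* from -0.279 to -0.043, *Ptgir* from 0.054 to 0.201 and *Ptges2* from -0.166 to -0.048. The cause was not tested.

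The samples share only replicate numbers. The correlation of same-numbered deviations from group means was 0.249 and 0.134, and that of other numbers ran from -0.249 to 0.119. Leaving out a CAF-vec sample assumes that the lone one varies like the CAF-200 group.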
